A study of Mus musculus with 5 samples.

Results

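The 42 mouse genes described here act in G2 phase and mitosis and were listed by name for that function. Each was found on the array through its RefSeq accession, and its brightest probe by the average of the 5 arrays was used. All 42 were found among 22903 named genes, and all 42 were well above background on all 5 arrays, so no member was lost to a filter on dim signals. The study measured RNA of B16F1 cells, a mouse melanoma line, on 1-colour Agilent arrays. Wild-type cells received vehicle (1 array), TGF-β1 at 10 ng/ml for 2 days (1 array), or TGF-β1 with the MRTF pathway inhibitor CCG1423 at 10 µM for 2 days (1 array). Cells of 2 Tmsb4x knockout clones received the same TGF-β1 treatment (1 array a clone). The labels give no time for the vehicle culture. The treatment field of the CCG1423 sample names that compound alone, while its title and description name both agents, so it was taken as both. Each clone was measured once, and no untreated knockout and no CCG1423-only culture was analysed here. The labels call the clones a knockout, while the design text of the series says knockdown, and the labels were followed.

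Entry into mitosis is driven by Cdk1 bound to cyclins A and B, whose activity rises when Cdc25 phosphatases remove inhibitory phosphates. Polo-like and Aurora kinases then build the spindle, the spindle assembly checkpoint delays anaphase until kinetochores are attached, and the anaphase-promoting complex with Cdc20 triggers the destruction of cyclin B and securin. Most of the genes are transcribed late in the cell cycle through the MuvB complex with B-Myb and FoxM1, and through the CCAAT-binding factor NF-Y, so their summed RNA in a culture follows how many cells are in G2 and mitosis. In RNA from bulk cultures, fewer cells in a phase and less RNA per cell cannot be told apart.

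Promoters of the genes shared short sequence features that the list does not use. RefSeq promoter windows (build GRCm38.p6), from 250 bases before to 50 after a transcript start, were at hand for 35 of the 42 genes (38 windows). The cell cycle homology region, the element that MuvB binds, was searched as TTTGAA or TTCGAA on both strands, and the NF-Y site as CCAAT on both strands. The first motif stood in 30 of 38 windows (78.9%) against 19.2% of all 32851 windows, and CCAAT stood in 30 of 38 (78.9%) against 37.4%. Both were present in 27 member windows (71.1%), against 7.52% of all windows, 50% of 56 windows of other G2/M genes and 12.8% of 47 windows of DNA replication and G1/S genes. Bub3, Ect2 and Prc1 have 2 overlapping windows each, so the same motifs of these genes count in both windows. By gene, 24 of 35 members had both motifs. The windows of 4 genes are shown because their genes carry the results below: Plk1 and Kif11 were the 2 members lower by at least 2-fold with CCG1423, Ccnb1 encodes the main mitotic cyclin, and Pttg1 was the member that went the other way. Sequences run 5′ to 3′ on the strand of the gene, with the motifs in capitals, and the motifs do not overlap in any of them.
Plk1 (chr7:122159185-122159484, + strand): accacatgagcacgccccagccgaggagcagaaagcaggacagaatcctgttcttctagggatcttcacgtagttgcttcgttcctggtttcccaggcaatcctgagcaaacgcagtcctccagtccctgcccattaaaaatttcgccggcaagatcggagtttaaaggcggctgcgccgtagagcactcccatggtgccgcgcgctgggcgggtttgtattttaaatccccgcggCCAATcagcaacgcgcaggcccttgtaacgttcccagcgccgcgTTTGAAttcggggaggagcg
Kif11 (chr19:37376132-37376431, + strand): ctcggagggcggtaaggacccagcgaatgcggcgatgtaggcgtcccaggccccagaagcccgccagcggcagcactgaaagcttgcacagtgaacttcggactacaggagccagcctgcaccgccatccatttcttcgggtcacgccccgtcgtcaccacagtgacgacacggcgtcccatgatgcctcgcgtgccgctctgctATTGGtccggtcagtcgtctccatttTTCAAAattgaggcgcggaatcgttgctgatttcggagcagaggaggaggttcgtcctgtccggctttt
Ccnb1 (chr13:100786437-100786736, - strand): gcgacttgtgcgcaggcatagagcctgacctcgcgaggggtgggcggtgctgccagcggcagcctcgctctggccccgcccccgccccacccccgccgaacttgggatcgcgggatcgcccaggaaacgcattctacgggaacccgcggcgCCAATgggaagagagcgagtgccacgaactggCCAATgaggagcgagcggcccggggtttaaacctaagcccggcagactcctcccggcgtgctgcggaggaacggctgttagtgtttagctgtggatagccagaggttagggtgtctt
Pttg1 (chr11:43425932-43426231, - strand): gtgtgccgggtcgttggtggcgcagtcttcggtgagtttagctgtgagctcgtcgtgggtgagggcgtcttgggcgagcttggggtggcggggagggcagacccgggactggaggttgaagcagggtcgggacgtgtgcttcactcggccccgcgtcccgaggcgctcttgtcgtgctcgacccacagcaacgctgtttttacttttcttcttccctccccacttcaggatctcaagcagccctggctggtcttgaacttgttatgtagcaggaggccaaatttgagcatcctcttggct
The Plk1 window has CCAAT beginning 14 bases before the start and TTTGAA beginning at base 31 of the transcript. In the Kif11 window the reverse forms, ATTGG and TTCAAA, begin 45 and 19 bases before the start. Ccnb1 has CCAAT beginning 99 and 67 bases before the start and no match to the other motif, and Pttg1 has neither. A match is only a run of letters, not a measured binding site, and its absence says only that the letters are not in this window. The 24 genes with both motifs had a median log2 difference of -0.58 with CCG1423, and the 5 with neither (Birc5, Mad2l1, Nuf2, Nusap1 and Pttg1) had -0.49.

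Levels below are log2 processed signals minus the array's 75th percentile, so 0 is that percentile, and differences are between such levels. The percentile itself was 229.6 intensity units on the CCG1423 array and 280.8 to 329.3 on the others, and 48.2% to 53.8% of probes were well above background, fewest in clone 2. No spot was saturated. Tmsb4x stood at 5.05 with vehicle, 7.12 with TGF-β1, 6.79 with CCG1423, 5.44 in the first knockout clone and 4.28 in the second. The clones' difference from wild type with TGF-β1 was -2.26 (SE 0.44, limma adjusted p = 0.0864). The edited stretch is not given, so whether the probe reports on it is unknown. Of 15 melanocyte markers, 13 were well above background on all arrays. Of 7 fibroblast markers 0 were, of 7 epithelial 0, of 5 endothelial 1 (Vwf) and of 9 immune 4 (Cd68, Itgam, Cd3e and Csf1r); Ptprc, which marks leukocytes, was below background on all.

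The first comparison asks whether TGF-β1, a cytokine that arrests many epithelial cells, altered the mitotic programme of wild-type cells. The members differed little between the arrays: the median log2 difference was -0.02, the values ran from -0.31 (Espl1) to 0.22 (Prc1), and 38 of 42 lay within 0.25 of 0, against 59.3% of 14142 genes. None differed by 2-fold or more, against 3.27% of genes lower and 4.95% higher. The median over all genes was -0.05. The 14142 genes include dim ones that were well above background on 1 side only, whereas all 42 members were above it on both. The part of brightness in the narrower range of the members was not tested. Each side is 1 array, and the difference was not tested.
Cdk1, the kinase that drives entry into mitosis, had levels of 3.24 with vehicle and 3.30 with TGF-β1. Ccna2, cyclin A2, had 3.87 and 3.85, and Ccnb1 4.63 and 4.51. Mki67, which encodes the proliferation antigen Ki-67, had 5.92 and 5.77. Thus the cyclins, their kinase and Ki-67 were each within 0.15 of their vehicle level. The lowest differences, besides that of Espl1, the separase that cuts cohesin, were those of Anln (-0.29), an actin- and septin-binding scaffold of the cleavage furrow, and of Cdc25b and Pttg1 (each -0.26). A second, dimmer Cdc25b probe gave 0.49, the opposite direction. Signs were mixed, with 25 members below 0 (57.2% of all genes) and 17 above it. On the deposited value table, which carries its own scaling constants, 14 were below 0 and the median was 0.08 beside 0.06 for all genes.

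**Figure D1:**
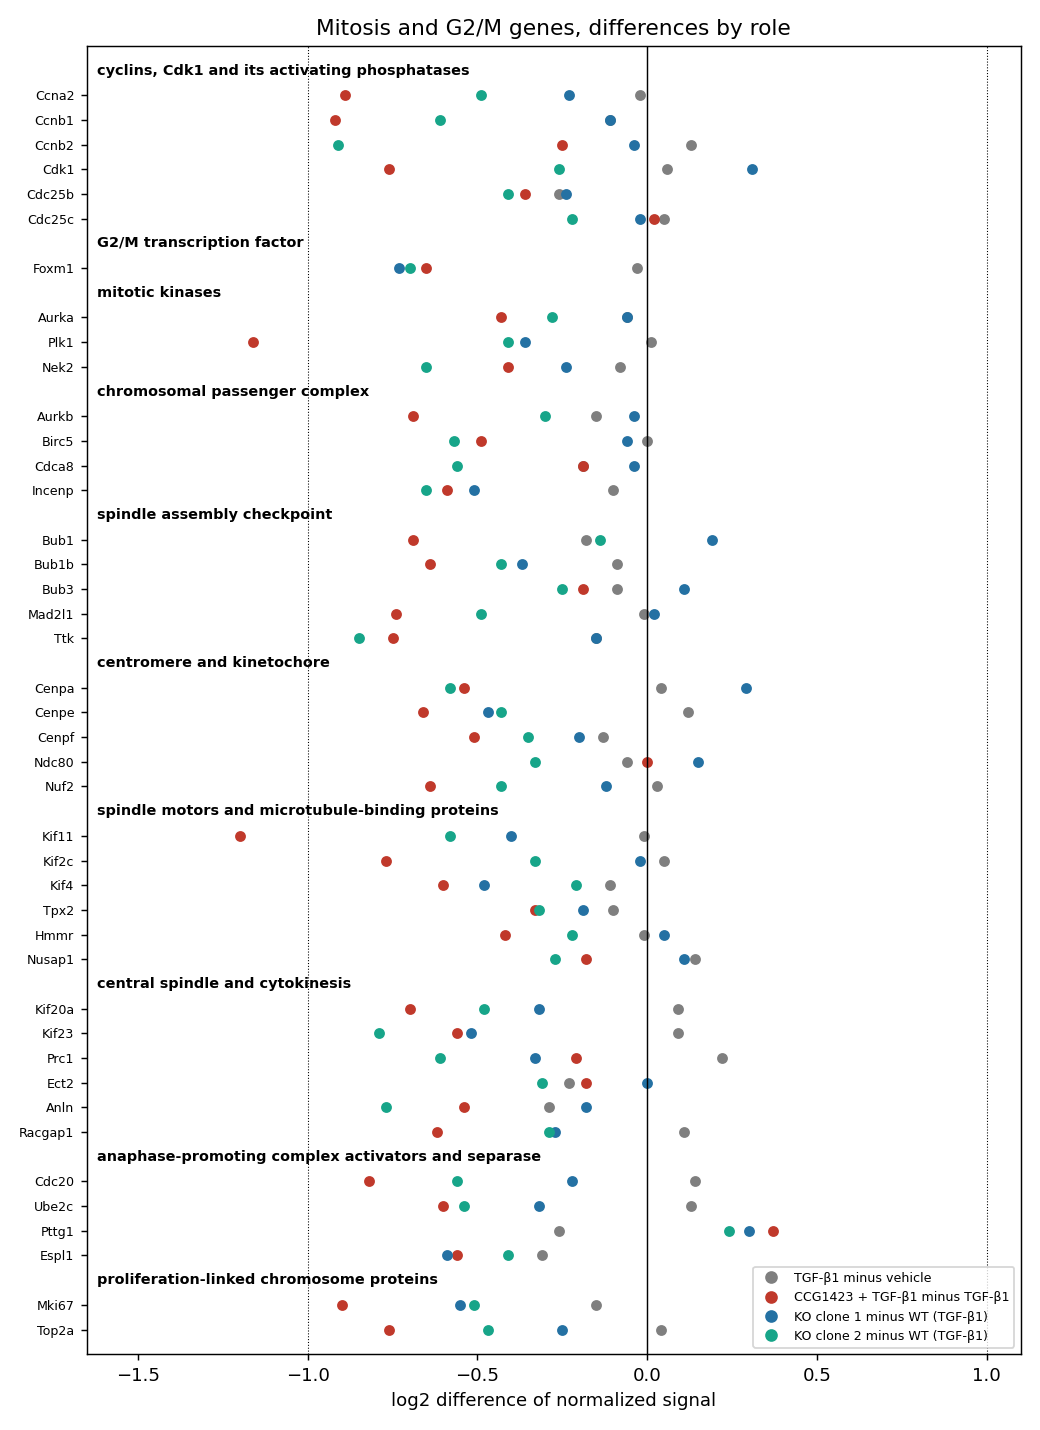
Log2 differences of the 42 members (rows, grouped by role) in 4 comparisons (colours); each point is a difference between single arrays, and dotted lines mark 2-fold. With CCG1423 the points run from -1.20 (Kif11) to 0.37 (Pttg1), while TGF-β1 minus vehicle stays between -0.31 and 0.22.

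The next comparison sets CCG1423 added to TGF-β1 against TGF-β1 alone and asks what the MRTF inhibitor did to the same genes. Nearly the whole set was lower: 39 of 42 members lay below 0 with CCG1423, against 53.7% of 14054 genes, and the median difference was -0.59, against -0.05 for all genes. Most differences were short of 2-fold. Members lower by at least 2-fold numbered 2 (Plk1 and Kif11), against 6.98% of all genes, and 0 were higher by 2-fold, against 6.01%, so at that threshold the share of members lay near the background, while 27 members stood at -0.5 or lower, a limit chosen after the values were seen, against 20.8%. Cdc25c (0.02), Ndc80 (0.00) and Pttg1 (0.37) were the 3 members not lower, and the first 2 were below 0 when arrays were scaled by their median or on the value table. All 14 measured melanocyte markers were also lower, by a median of -0.51, and their summed level was 1870 against 2520; their part in the result was not tested. The comparison has 1 array a side and was not tested. The lower 75th percentile of the CCG1423 array moved with it, and its part was not tested. Under 4 other scalings or background corrections the median over members stayed between -0.52 and -0.72, beside -0.18 to -0.0 over all genes.

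Among the cyclins and Cdk1, Ccnb1 had a level of 4.63 with vehicle, 4.51 with TGF-β1, 3.59 with CCG1423, 4.40 in clone 1 and 3.90 in clone 2. It was 1.89-fold lower with CCG1423, where it had its lowest level. Ccna2, at 3.87, 3.85, 2.96, 3.62 and 3.36 on the same arrays, was 1.86-fold lower. Cdk1, at 3.24, 3.30, 2.54, 3.61 and 3.04, was 1.69-fold lower, and its highest level was in clone 1. Ccnb2, the second mitotic B-type cyclin, did not follow Ccnb1: it stood at 5.37, 5.5, 5.25, 5.46 and 4.59, 1.19-fold lower with CCG1423 and lowest in clone 2. Of the phosphatases, Cdc25b differed by -0.36. The Cdc25c level was 2.56 to 2.80 on all 5 arrays.

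Of the mitotic kinases, Plk1, the polo-like kinase needed for spindle assembly and mitotic exit, stood at 5.27 with vehicle, 5.28 with TGF-β1, 4.12 with CCG1423, 4.92 in clone 1 and 4.87 in clone 2. The CCG1423 array was thus the low one, 2.24-fold below TGF-β1 alone, with the clones in between. Aurka, the centrosomal Aurora kinase, was 1.35-fold lower and Nek2, which separates centrosomes, 1.33-fold. In the chromosomal passenger complex, which corrects faulty attachments, Aurkb, its kinase, differed by -0.69, Incenp, its scaffold, by -0.59, Birc5, survivin, by -0.49 and Cdca8, borealin, by -0.19.

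All 5 checkpoint genes were lower with CCG1423, by a median of -0.69. Ttk, the kinase Mps1 that starts checkpoint signalling, was at 0.84, 0.69, -0.06, 0.54 and -0.17 on the arrays of vehicle, TGF-β1, CCG1423, clone 1 and clone 2. It was low both with CCG1423 and in clone 2. Mad2l1, whose protein inhibits Cdc20, differed by -0.74, Bub1 by -0.69, Bub1b (BubR1) by -0.64 and Bub3, their shared partner, by -0.19. At the kinetochore, Cenpe, a motor that aligns chromosomes, differed by -0.66 and Nuf2 by -0.64, yet Ndc80, whose protein pairs with Nuf2 in 1 complex, by 0.00. Cenpa, the centromeric histone H3 variant, differed by -0.54 and Cenpf by -0.51.

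Kif11 encodes the kinesin Eg5, which pushes the spindle poles apart. Its levels were 0.62, 0.61, -0.58, 0.21 and 0.03, so CCG1423 gave the lowest, 2.29-fold below TGF-β1 alone. Kif2c, a microtubule-depolymerising kinesin, differed by -0.77 and Kif4, a chromokinesin, by -0.60, whereas Tpx2, the activator of Aurora A, differed by -0.33, Hmmr by -0.42 and Nusap1, a microtubule bundler, by -0.18. For cytokinesis, Kif20a (-0.70), Racgap1 (-0.62), a subunit of centralspindlin, Kif23 (-0.56), its kinesin partner, and Anln (-0.54) had differences beyond -0.5, whereas Prc1, the bundler of the midzone, had -0.21 and Ect2, the RhoA activator, -0.18. Top2a, the topoisomerase that untangles sister chromatids, had -0.76, and Mki67 1.86-fold less signal.

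The anaphase genes split. Cdc20, the coactivator of the anaphase-promoting complex, was at 5.20, 5.33, 4.51, 5.11 and 4.77 and so 1.77-fold lower with CCG1423. Ube2c, the E2 enzyme that works with the complex, differed by -0.60 and Espl1 by -0.56. Pttg1, securin, which holds separase inactive, stood at 3.87 with vehicle, 3.62 with TGF-β1, 3.99 with CCG1423, 3.92 in clone 1 and 3.86 in clone 2. The TGF-β1 array was the low one, and the other 4 lay within 0.13 of each other. Its second probe, dimmer, gave -0.21 with CCG1423, so the higher level rests on 1 probe.

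**Figure D2:**
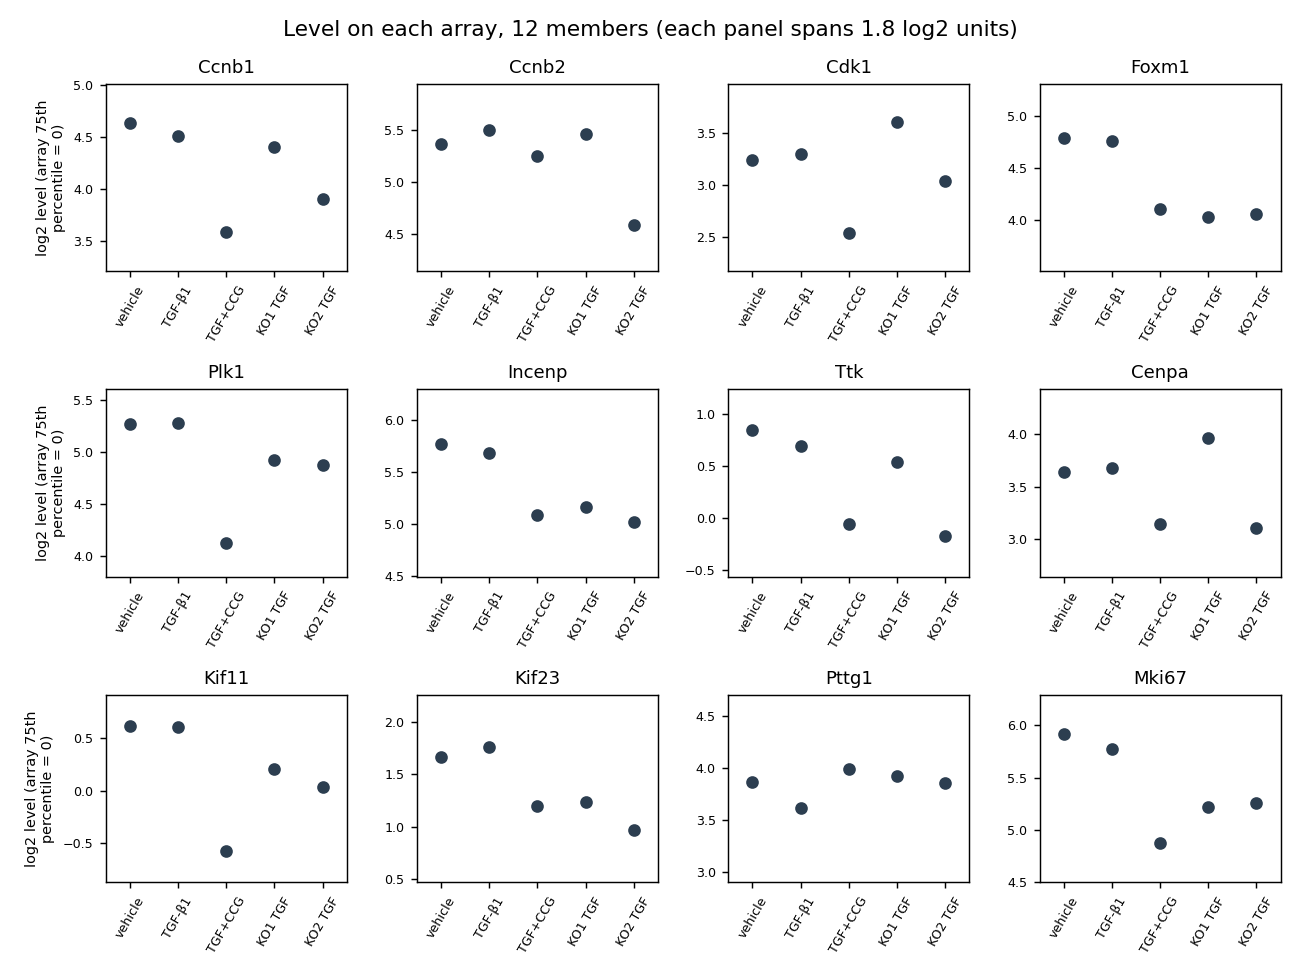
Log2 level (0 is the array's 75th percentile) of 12 members on each of the 5 arrays, 1 point an array, with 1.8 log2 units a panel. Plk1 and Kif11 have their lowest point with CCG1423, Ccnb2 has it in clone 2 (4.59), Foxm1 is low on the last 3 arrays (4.11, 4.03 and 4.06), and Pttg1 is lowest with TGF-β1 (3.62).

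Several genes had a second measurement. For 20 members, 2 or more probes (43 in all) were well above background on all arrays, and for 19 of these all probes were lower with CCG1423, Pttg1 being the exception. With CCG1423 the probes of a gene differed from each other by a median of 0.10 and at most 0.58 (Pttg1). The median was 0.07 for TGF-β1 against vehicle, where the widest range was that of Cdc25b (0.75, from -0.26 to 0.49), 0.07 in clone 1 and 0.15 in clone 2. Ccnb1 had 3 probes, at -0.92, -0.93 and -0.79, and Ttk 3 probes, at -0.75, -0.89 and -0.86. Agreement of this kind speaks to the measurement on 1 array of RNA and not to differences between cultures. Plk1 and Kif11 had 1 probe each.

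**Figure D3:**
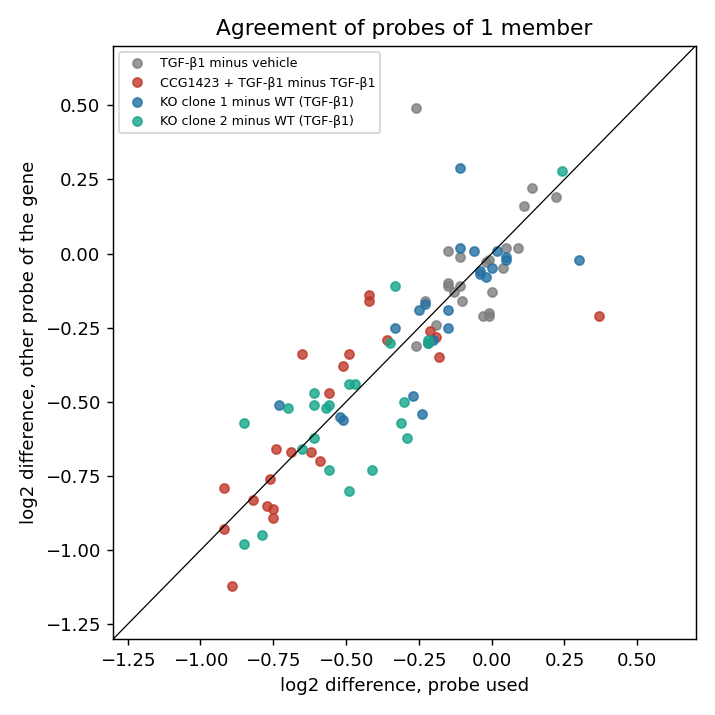
For the 20 members with several probes measured on all arrays, the log2 difference by the probe used (x) against that by each other probe of the gene (y), in 4 comparisons (colours); the line marks equality. The points farthest from the line are Cdc25b with TGF-β1 (-0.26 and 0.49) and Pttg1 with CCG1423 (0.37 and -0.21).

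The third comparison asks how cells of the Tmsb4x knockout clones differed from wild-type cells when both had TGF-β1. No member passed: limma called 0 of 42 at an adjusted p of 0.05, with 1 (Foxm1, lower) at an unadjusted p under 0.05 (3.51% of all genes), and adjusted p ran from 0.724 to 1. Over 13726 genes, 0.219% were called lower and 0.00729% higher. Of the members, 39 were below 0 in the mean of the clones and 32 in both, against 32.4% of all genes in both. The median over members was -0.19 in clone 1 and -0.43 in clone 2, against 0.01 and -0.00 over all genes. Clone 1 had 32 members below 0 (49.5% of genes) and 5 at -0.5 or lower (11.3%), and clone 2 had 41 (50.4%) and 16 (9.13%). Members lower by 2-fold numbered 0 in clone 1 (3.46%) and 0 in clone 2 (2.79%). Unlike with CCG1423, 10 of 14 measured melanocyte markers were above 0 in both clones, against 4456 of all 13726 genes. Over all genes 1.58% were lower by 2-fold in both. The spread came from the 2 clones and the single wild-type array was taken to vary like them.

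Foxm1, the transcription factor that drives G2/M genes, stood at 4.79 with vehicle, 4.76 with TGF-β1, 4.11 with CCG1423, 4.03 in clone 1 and 4.06 in clone 2. The 2 wild-type arrays without inhibitor lay together and above the other 3. The clones differed from wild type by -0.73 and -0.70 (mean -0.72, SE 0.28, limma adjusted p = 0.724), and the second probe of the gene gave -0.51 and -0.52. With CCG1423 the second probe, dimmer, differed by -0.34, beside -0.65 for the probe used. For TGF-β1 minus vehicle it gave -0.21, beside -0.03, so the 2 wild-type arrays lay less close by that probe. Mybl2, which encodes the partner B-Myb and is no member, differed by -0.57 and -0.58 (adjusted p = 0.922). It was named after its values were seen. The 18 genes of its list (DREAM, MuvB and B-Myb) had medians of just -0.13 in clone 1 and -0.15 in clone 2. In both clones, 12 of the 18 were below 0 and 4 above it.

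Kif23 and Incenp came next by unadjusted p. Kif23 stood at 1.67, 1.76, 1.20, 1.24 and 0.97 on the arrays of vehicle, TGF-β1, CCG1423, clone 1 and clone 2, a mean difference of -0.66 for the clones (SE 0.30, adjusted p = 0.885). Incenp stood at 5.77, 5.68, 5.09, 5.16 and 5.02, with -0.58 (SE 0.29, adjusted p = 0.958). For both, neither clone reached the wild-type levels without inhibitor. Mki67, at 5.92, 5.77, 4.87, 5.22 and 5.26, differed by -0.55 and -0.51. Members at -0.5 or lower in both clones were these 4, against 4.28% of all genes.

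The clones did not match for many members. Clone 2 was below clone 1 for 37 of 42 (54.2% of 13846 genes), by a median of -0.27 against -0.05, 8 by 0.5 or more (13%), and 0 members differed by 2-fold, where 3.34% of all genes were lower and 4.24% higher. This was not particular to the members. The median clone difference was -0.26 for other G2/M genes, -0.34 for DNA replication and G1/S genes and -0.23 for anaphase-promoting complex subunits. It was -0.03 for the DREAM, MuvB and B-Myb list and 0.05 for CDK inhibitors and arrest genes. Clone 2 had the fewest probes well above background (48.2%), and the part of this was not tested. Ccnb2 lay at -0.04 from wild type in clone 1 and -0.91 in clone 2, Cenpa at 0.29 and -0.58, and Cdk1 at 0.31 and -0.26. Cenpa levels were 3.64, 3.68, 3.14, 3.97 and 3.1 on the arrays in the same order, so the clones held its highest and lowest levels. Kif4 (-0.48 and -0.21) and Espl1 (-0.59 and -0.41) were lower in clone 1 instead. On the deposited value table the sign of the clone difference turned, with 15 members below 0 and a median of 0.05, beside 0.27 for all genes. That table multiplies each array by 1 constant, so it shifts all genes alike and cannot change where the members lie among them.

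Across the 5 arrays, the lowest level was on the CCG1423 array for 23 members, on clone 2 for 16, on clone 1 for 2 (Foxm1 and Espl1) and on TGF-β1 for 1 (Pttg1). Of 12055 genes well above background on all arrays, the lowest was on the CCG1423 array for 34%, on clone 2 for 17.2%, on clone 1 for 18.8%, on TGF-β1 for 13.2% and on vehicle for 16.8%. The highest level was on vehicle for 19 members (23.2% of those genes), TGF-β1 for 13 (8.64%), clone 1 for 8 (25.1%), CCG1423 for 2 (25.2%) and clone 2 for 0 (17.9%). In 28 members both vehicle and TGF-β1 lay above all of the 3 other arrays, against 13.9% of those genes. The array of TGF-β1 in wild-type cells serves both the CCG1423 and the knockout comparison. Set against vehicle, which neither uses, CCG1423 gave 39 members below 0 (53.6% of 13839 genes), 25 at -0.5 or lower (23%) and 4 lower by 2-fold (8.06%).

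Other genes of the cell cycle, from lists of known function, were set beside the members. A list of 62 other G2/M genes had medians of -0.05 with TGF-β1, -0.42 with CCG1423, -0.17 in clone 1 and -0.45 in clone 2. With CCG1423, 8 were lower by at least 2-fold and 0 higher, against 6.98% and 6.01% of all genes. Pimreg (2.64-fold) and Cit (2.61-fold), the citron kinase of cytokinesis, led the 8. In limma 0 of the 62 passed for the knockout, with 2 lower and 1 higher at an unadjusted p under 0.05. Of all 13726 genes, 482 were lower and 309 higher at that limit. DNA replication and G1/S genes had larger differences with CCG1423: the median was -0.95, with 45 of 49 below 0 and 23 lower by at least 2-fold. Over all genes, 53.7% were below 0 and 6.98% lower by 2-fold. Among the 23 were Pola2 (3.33-fold), a subunit of DNA polymerase alpha, and Fen1 (3.29-fold), the flap endonuclease. The difference between the replication list and the members was not tested. With TGF-β1 that list had a median of -0.24 with 2 genes at 2-fold lower, against 3.27% of all genes. The 2 were Ccnd1 (-1.14), cyclin D1, and Cdk6, which was well above background with vehicle and not with TGF-β1.

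Genes that oppose cycling gave other values. Of 20 measured CDK inhibitors and arrest genes, 3 were higher by at least 2-fold with CCG1423, against 6.01% of all genes. The 3 were Gadd45a (10.3-fold), Plk2 (3.08-fold) and Btg1 (2.17-fold). Gadd45a, an inhibitor of Cdk1 and cyclin B1, stood at 1.00, 0.16, 3.52, 0.45 and 0.60 on the 5 arrays. Gadd45a was thus high on the CCG1423 array alone. Sfn, 14-3-3σ, was the 1 gene of the list lower by at least 2-fold (2.18-fold), against 6.98% of all genes. Cdkn1a, the inhibitor p21, was at 4.14, 3.94, 3.49, 4.58 and 5.12, lowest with CCG1423 and highest in clone 2; its knockout difference did not pass (adjusted p = 0.593), and neither did that of Trp53inp1, higher by 2-fold in both clones (adjusted p = 0.234). In limma 0 of the 20 passed, with 1 lower and 3 higher at an unadjusted p under 0.05, against 482 lower and 309 higher of all 13726 genes.
Subunits and cofactors of the anaphase-promoting complex, the ubiquitin ligase that ends mitosis, had medians of -0.02 with TGF-β1, -0.03 with CCG1423, 0.22 in clone 1 and -0.05 in clone 2, with 0 of 16 at 2-fold in any of the 4. In the DREAM, MuvB and B-Myb list 5 of 18 were lower by at least 2-fold with CCG1423 (E2f7, Nfyc, Rbl1, Tfdp1 and E2f8) and 0 higher. Over all genes 6.98% were lower and 6.01% higher. The median of the list was -0.21. Of 17 measured genes linked to quiescence, 2 were higher by at least 2-fold with CCG1423, against 6.01% of all genes. None was lower by 2-fold, against 6.98%. Their median was 0.18, against -0.05 for all genes. The 2 were Klf4 (2.33 on the log2 scale) and Btg1 (1.12). Btg1 is also in the list of CDK inhibitors and arrest genes above, so it counts in both lists.

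**Figure D4:**
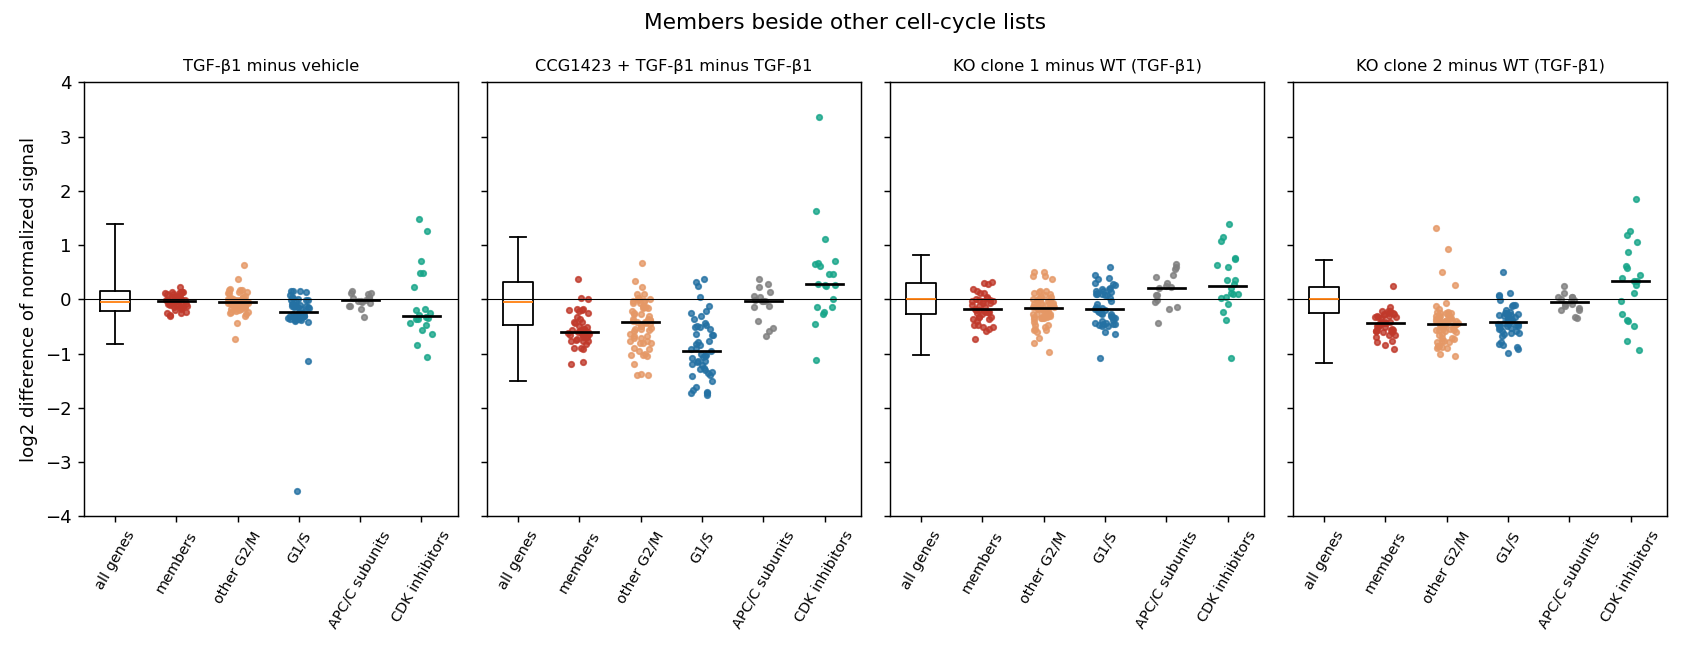
Log2 differences in 4 comparisons (panels) for the members, 62 other G2/M genes, DNA replication and G1/S genes, anaphase-promoting complex subunits, and CDK inhibitors and arrest genes; each point is a gene, spread sideways at random, and black bars are medians. The box for all genes kept shows the median and quartiles with whiskers at the 5th and 95th percentiles; with CCG1423 the medians are -0.59 for members, -0.42 for other G2/M genes, -0.95 for G1/S genes and -0.03 for the complex subunits.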

How the data were processed

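RNA of 5 B16F1 cultures was measured on 5 arrays of 1 slide, with groups taken from the sample labels; whether cultures were grown on separate occasions is not given, so p-values cover just the variation among these samples, which may be technical. The deposited intensity (processed signal) was background-subtracted and detrended within each array by Agilent Feature Extraction 12.0.3.1, per the file headers and the submitters' processing notes, and was not normalized between arrays. Flags of 0 or 1 (other columns) were set by the same software, per the file headers. A value table, also deposited, is the same intensity times 1 constant an array (log2 -0.172 to 0.345, from comparing each column with its own array); it is linear and uncentred, its column medians were 26.9, 29.2, 27.5, 23.2 and 28.8, and how the constants were chosen is not given in the sources used here.

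Control and outlier spots were left out, repeat spots of a probe were averaged as log2 values, and the 75th percentile of each array was subtracted. Accessions matched RefSeq genes of GRCm38.p6 for 32983 of 56595 probes. A gene entered a comparison when all arrays of 1 or more of the groups compared had it well above background. For counts at 2-fold over all genes, a side below background was set to the lowest signal called well above background. For the knockout, limma 3.58.1 under R 4.3.3 was used (trend, 4 groups, Benjamini-Hochberg over all genes), after the fit was tested on simulated data; single arrays were not tested. Python 3.11.15 did the rest. The members and lists were chosen with earlier results of these data known. All members may be named; of other lists, up to 2 genes a direction at 2-fold, measured on both sides, and markers. Outside that rule, Mybl2, Cdkn1a, Cdk6, Btg1, Rbl1, Tfdp1 and E2f8 were named after their values were seen. The normexp alternative used the median spot signal, since the files give no mean signal. The number of arrays limits the precision.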

Additional observations from a re-analysis of the deposited data

How the results depend on the processing

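The direction of the CCG1423 difference did not change under the 5 alternatives that could move a member (quantile, median and value-table scaling, normexp and the mean over probes), with a median over members of -0.72 to -0.52 and 39 to 41 members below 0. Median and value-table scaling shift all genes of an array alike, so they cannot change where members lie among all genes. The median over all genes was -0.09 with median scaling and -0.18 on the value table. It was -0.02 with quantile normalization, -0.0 with normexp and -0.05 with the mean over probes. Both filters on dim genes leave the members' values as they are, since all members are above background on all arrays. The count lower by 2-fold was 5 on the deposited value table and 1 with normexp. For the knockout, leaving out 1 clone gave medians of -0.43 and -0.19, and 32 to 41 members below 0. On the deposited value table it was -0.53, beside -0.20 over all genes. That table also gave 14 members below 0 for TGF-β1, and 15 below 0 and a median of 0.05 for clone 2 minus clone 1, where all genes stood at 0.27. Limma called 0 members under all 10 settings that could be tested, and Foxm1 had an unadjusted p under 0.05 in all but the fit without trend. Over all genes the calls were unstable, with 30 lower and 1 higher in the main analysis, 0 and 0 with quantile normalization and with the mean over probes, 48 and 5 with median scaling, 200 and 20 on the value table, 77 and 8 with normexp, 179 and 100 without a filter, 1 and 0 for genes above background on all arrays, 174 and 10 without trend, and 64 and 11 with only the 3 arrays compared; the cause was not tested. Leaving out a clone leaves no residual degree of freedom, so it gives values with no test. No paired analysis was possible because the wild-type groups have 1 array each and share 1 replicate number with the knockout. All arrays were on 1 slide, so no batch could be tested. Among values for single members, 1143 moved by less than 0.18, the median SD of a gene between clones, and 117 moved by more. These counts take in the filters on dim genes, where no value could move, and the values without 1 clone. On the value table all 42 members moved by more in the knockout comparison, and all 42 in the clone comparison. Of the values at 2-fold, 0 changed sign.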
